A study of Mus musculus with 6 samples.

Results

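Lysosomes digest proteins, lipids and sugar chains, and the 42 genes described here encode their enzymes, membrane proteins and acidifying pump. They were the genes of the count table whose symbols are lysosomal hydrolases and their helper proteins, lysosomal membrane proteins, subunits of the V-ATPase, or the transcription factors Tfeb and Tfe3, with the cathepsin proteases left out. All 42 were found among the 55367 gene names of the table, and all 42 were among the 14916 genes abundant enough to test. They comprise 7 membrane proteins and transporters, 10 glycosidases, 5 sulfatases, 7 lipid hydrolases, activators and carriers, 3 proteases and related proteins including progranulin, 8 genes of the V-ATPase and 2 transcription factors.

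RNA was sequenced from primary mouse keratinocytes, epidermal cells taken from skin and grown on collagen in low-calcium medium, to ask how loss of iASPP alters gene expression. All 6 cultures carried the genotype Ppp1r13lflox/flox;Cre+ERT on a mixed C57BL/6 and 129/Sv background, so that the gene encoding iASPP, Ppp1r13l, had floxed copies and a tamoxifen-activated Cre recombinase, expressed from the broadly active ROSA26 locus, was present in both groups. The 3 iASPP KO cultures received tamoxifen when the medium was replaced at 24 h and the 3 iASPP WT cultures received none, with 1 culture of each group in each of 3 labelled batches. The concentration is given as 1 mM in the sample labels and as 1 μM in the study's methods. Because no control culture received the drug, tamoxifen and deletion cannot be told apart in any difference below.

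Totals ran from 20202517 to 25157117 counts per library, and levels are given as CPM (the counts of a gene scaled to 1000000 per library) and corrected for library composition. In the order of batches 1 to 3, Ppp1r13l had 320, 395 and 139 counts with tamoxifen and 697, 1100 and 472 counts without it, a log2 fold change of -1.45 ± 0.18 (SE, edgeR adjusted p = 0.0030), counted over all exons although the deletion removes exon 8 only. The summed level of 12 keratinocyte markers was 27910 to 30382 CPM in iASPP KO and 28983 to 32564 CPM in iASPP WT, and none of the 12 passed the test. The libraries of batch 3 stood apart from the other 4 on the leading principal component, which held 45.4% of the variance. The 9 fibroblast markers summed to 509 CPM in iASPP KO and 735 CPM in iASPP WT of batch 3, against 43.1 to 58.0 CPM in the other 4 libraries.

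The lysosome is kept acidic by the V-ATPase, a rotary pump in which the cytosolic V1 sector hydrolyses ATP and turns a rotor that drives protons through the membrane-embedded V0 sector. Its enzymes work best at that acid pH, and several need a helper protein to lift their lipid substrate out of the membrane. Many genes of this system share a short promoter element built around CACGTG, which is bound by Tfeb and Tfe3. In the epidermis, lysosomal enzymes and related organelles take part in lipid processing and in the turnover of cell contents as keratinocytes mature.

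Promoter sequences are shown for the 3 genes with the largest change among those past the threshold between conditions that had an entry in the RefSeq promoter table (GRCm38.p6, 250 bases before to 50 after an annotated start), and the capitals mark TCACGTG or its reverse complement CACGTGA where present. The windows are chr11:55097735-55098034 on the plus strand for Gm2a, chr11:102430257-102430556 on the plus strand for Grn and chr16:44139210-44139509 on the minus strand for Atp6v1a, each printed 5′ to 3′ along the gene.
Gm2a: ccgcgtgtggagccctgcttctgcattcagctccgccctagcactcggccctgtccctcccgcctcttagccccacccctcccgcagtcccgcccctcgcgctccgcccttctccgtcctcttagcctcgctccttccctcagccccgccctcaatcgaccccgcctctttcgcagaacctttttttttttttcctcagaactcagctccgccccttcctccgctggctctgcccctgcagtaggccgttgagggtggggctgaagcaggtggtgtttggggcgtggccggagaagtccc
Grn: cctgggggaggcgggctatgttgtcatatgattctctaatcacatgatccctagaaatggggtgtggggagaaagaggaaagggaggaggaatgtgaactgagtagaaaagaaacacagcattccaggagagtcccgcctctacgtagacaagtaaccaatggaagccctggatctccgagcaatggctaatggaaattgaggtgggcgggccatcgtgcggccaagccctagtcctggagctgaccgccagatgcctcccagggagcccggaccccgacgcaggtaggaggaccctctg
Atp6v1a: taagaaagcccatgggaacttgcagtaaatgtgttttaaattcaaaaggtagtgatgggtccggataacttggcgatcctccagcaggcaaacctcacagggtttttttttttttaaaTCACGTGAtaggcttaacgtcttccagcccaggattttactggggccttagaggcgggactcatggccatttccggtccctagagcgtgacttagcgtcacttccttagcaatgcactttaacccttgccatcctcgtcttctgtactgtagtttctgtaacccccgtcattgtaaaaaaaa
The Gm2a and Grn windows held no CACGTG, and the Atp6v1a window held 1, centred 128 bases before the start. Starts of promoters here and below are RefSeq's and can differ from the gene positions given later, which are those of the count table. The Gm2a window ends before the counted gene, which begins at 55098115, and the Atp6v1a window lies inside the counted gene, which reaches 44139705.

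Of the 42 genes, 36 had at least 1 promoter in the table, and 12 of these 36 (33.3%) held CACGTG. The same motif stood in 8.09% of the 27025 genes of the whole promoter table and in 11.8% of the 10565 tested genes with a promoter. Each of the 12 also held the longer TCACGTG, read on either strand and containing CACGTG, which was present in 4.29% of the genes of the table and 6.93% of those tested. The 12 were Lamp1, Cln3, Mcoln1, Gla, Glb1, Gaa, Naglu, Arsa, Sgsh, Lgmn, Atp6v0d1 and Atp6v1a, with 18 matches in all, of which 12 lay within 75 bases of the start. Lamp1 held 4 matches, the most of any member, and Gla, Cln3 and Mcoln1 held 2 each. A match describes the letters of a window and does not show a bound site.

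The matches of 5 genes had the palindrome TCACGTGA, and these are shown as the longest matches among the members, beside the 4 of Lamp1, the member with the most. They come from chr8:105566052-105566077 (Atp6v0d1, minus strand), chr16:44139375-44139400 (Atp6v1a, minus), chr7:126583342-126583367 (Cln3, minus), chrX:134601184-134601209 and chrX:134601217-134601242 (Gla, minus), chr8:3500464-3500489 (Mcoln1, plus), and chr8:13159090-13159115, chr8:13159106-13159131, chr8:13159123-13159148 and chr8:13159136-13159161 (Lamp1, plus).
Atp6v0d1: ctactgcggTCACGTGAgacgcggtg
Atp6v1a: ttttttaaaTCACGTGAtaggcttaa
Cln3: cgggtactgTCACGTGAcccccaacc
Gla, nearer the start: agatctcggTCACGTGAgcaactctc
Gla, farther upstream: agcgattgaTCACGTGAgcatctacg
Mcoln1: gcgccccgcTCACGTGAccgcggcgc
Lamp1, centred at -58: ggcaagataTCACGTGgtccagcgcc
Lamp1, centred at -42: gtccagcgccCACGTGAtgccgactg
Lamp1, centred at -25: tgccgactggCACGTGAccacatcac
Lamp1, centred at -12: gtgaccacaTCACGTGcggaacggag
In Atp6v0d1 the match is centred on the annotated start itself, at position 0, and in Gla the farther match lies at -224.

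**Figure D1:**
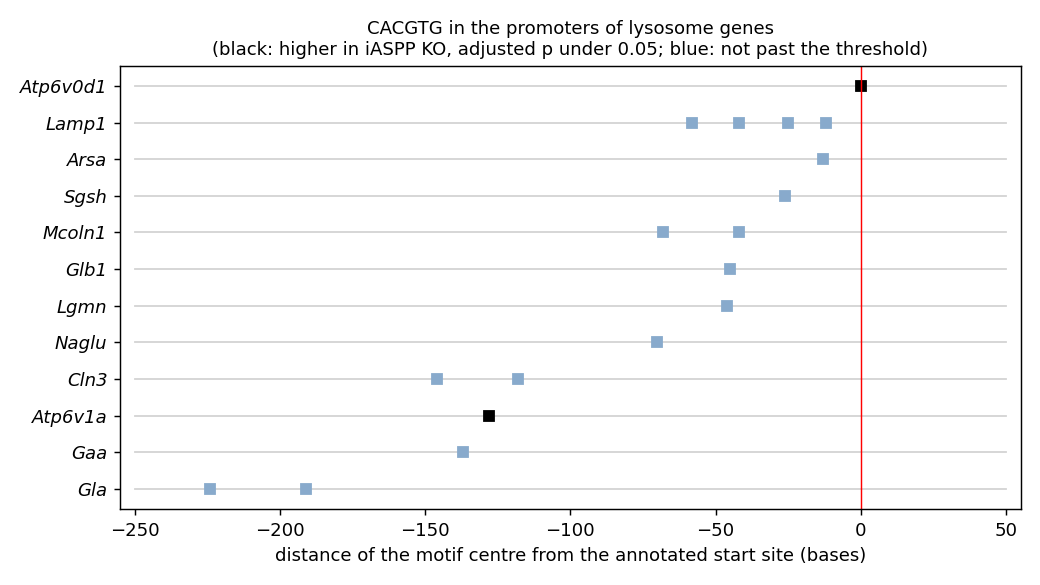
Position of every CACGTG match in the promoters of the 12 lysosome genes that held one. The x axis is the distance in bases from the annotated start, black squares mark genes past the threshold in iASPP KO (Atp6v0d1 and Atp6v1a) and blue squares the other 10, and 12 of the 18 matches lie within 75 bases of the start.

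Between conditions, 6 of the 42 genes were higher in iASPP KO and none was lower. The 6 were Gm2a, a helper protein of ganglioside breakdown, Grn, which encodes progranulin, and 4 subunits of the V-ATPase. Their log2 fold changes ran from 0.48 to 0.86, and the other 36 genes did not pass the test. Among all 14916 tested genes 2.17% were higher and 1.95% lower in iASPP KO at the same threshold, an adjusted p under 0.05 in edgeR's quasi-likelihood test with batch in the model. The 6 genes make 14.3% of the 42, which were chosen with earlier results of these data known. The median SE was 0.15 over the 42 and 0.21 over all tested genes, so equal changes passed more easily among the 42.

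Over all 42 genes, the 6 called ones included, most differences had the same direction. The fitted log2 fold change was above 0 for 34 of the 42 genes (81.0%), against 50.6% of all tested genes, and its median was 0.22 over the 42 and 0.01 over all tested genes. At an unadjusted p under 0.05, 15 genes were higher in iASPP KO and 1, Lgmn, was lower, where the shares of all genes were 8.66% and 8.09%. Taken batch by batch, the median of the 42 came to 0.10, 0.18 and 0.44 in batches 1, 2 and 3, and it was 0.12 in a fit without batch 3. In all 3 batches 18 genes (42.9%) were higher in iASPP KO and 3 were lower (Galns, Lipa and Lgmn), against 19.5% of all tested genes each way.

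The spread between batches was often wider than the change. All 3 iASPP KO libraries lay above all 3 iASPP WT libraries in CPM for 5 genes (Scarb2, Neu1, Npc2, Atp6v1a and Atp6v1d; 5.26% of all tested genes did so), and below them for 2 (Galns and Lgmn; 5.46% of all tested genes). For the other 35 genes the groups overlapped. With batch left out of the model none of the 42 passed, the lowest adjusted p being 0.973. That fit called none of the 14916 genes higher in iASPP KO.

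**Figure D2:**
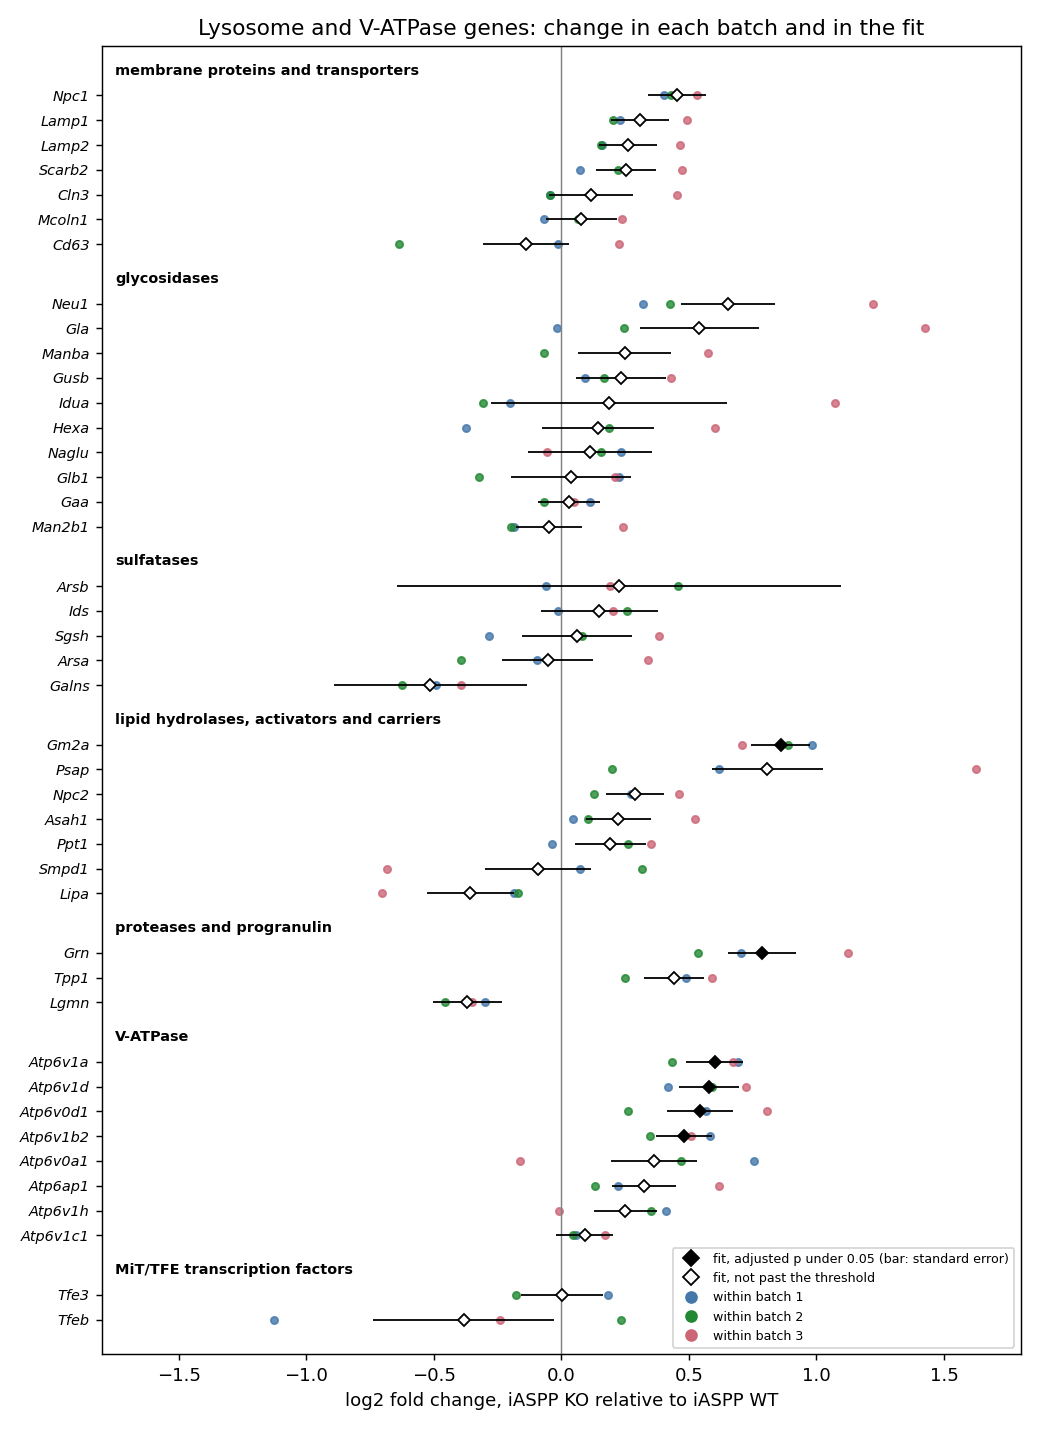
Change of each of the 42 genes, grouped by role. The x axis is log2 of the ratio of iASPP KO to iASPP WT, diamonds are the fit with its standard error (black past an adjusted p of 0.05), and coloured points are the changes within batches 1, 2 and 3; all 8 V-ATPase diamonds lie above 0, between 0.09 and 0.60.

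Of the 6 calls, 4 were V-ATPase subunits. All 8 V-ATPase genes of the 42 had a positive log2 fold change (50.6% of all tested genes did), with a median of 0.42. Of the 8, 4 passed the test, where 2.17% of all tested genes were higher: 3 subunits of the V1 sector and 1 of the V0 sector. In every batch 6 were higher in iASPP KO (19.5% of all tested genes), and the exceptions were Atp6v0a1 and Atp6v1h. The 13 other tested V-ATPase subunits, described further below, gave 1 call and a median of 0.27.

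Atp6v1a, the catalytic subunit that hydrolyses ATP (chr16:44085402-44139705, minus strand), was at 632, 622 and 503 CPM in iASPP KO of batches 1, 2 and 3 and at 391, 459.8 and 315 CPM in iASPP WT. The groups did not overlap, and batch 3 was lowest in both. Its log2 fold change was 0.60 ± 0.11 (SE, adjusted p = 0.0172). Atp6v1b2, the nucleotide-binding partner of that subunit in the V1 ring (chr8:69088646-69113711, plus strand), was at 463, 511 and 302 CPM in iASPP KO and 309, 402 and 212 CPM in iASPP WT. Here the iASPP KO library of batch 3 lay below the iASPP WT libraries of batches 1 and 2, although iASPP KO was higher within each batch. Its log2 fold change was 0.48 ± 0.11 (SE, adjusted p = 0.0389).

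Atp6v1d, part of the rotor stalk (chr12:78840725-78861638, minus strand), was at 115, 124 and 94.2 CPM in iASPP KO and at 85.9, 82.4 and 56.9 CPM in iASPP WT. The groups were separate, with the lowest library of each in batch 3. The log2 fold change was 0.58 ± 0.12 (SE, adjusted p = 0.0254). Atp6v0d1, which couples that rotor to the V0 ring (chr8:105524465-105566047, minus strand), was at 126, 144 and 93.7 CPM in iASPP KO and 84.9, 121 and 53.5 CPM in iASPP WT. The groups overlapped, since batch 2 of iASPP WT lay above batch 3 of iASPP KO. With a log2 fold change of 0.54 ± 0.13 (SE, adjusted p = 0.0480) it was the called gene nearest to the threshold.

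Leaving out a batch changed some of these calls. With batch 1, 2 or 3 left out, 3, 3 and 11 of the lysosome genes were higher in iASPP KO, where 1.09%, 1.14% and 5.2% of all tested genes were. Without batch 1, Atp6v1a, Atp6v1b2 and Atp6v0d1 no longer passed (edgeR adjusted p = 0.0905, 0.229 and 0.163) while Atp6v1d did (edgeR adjusted p = 0.0491), and without batch 2 none of the 4 passed (edgeR adjusted p from 0.0575 to 0.155), although every fold change stayed at 0.43 or above. Without batch 3 all 4 passed, and Atp6v0a1 and Atp6v1h passed as well.

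The other 4 V-ATPase genes did not pass with all batches. Atp6v0a1, the V0 subunit that lines the proton path, had a log2 fold change of 0.36 ± 0.17 (SE), made up of 0.76 and 0.47 in batches 1 and 2 and -0.16 in batch 3. Atp6v1h, a regulatory V1 subunit, likewise differed by 0.41 and 0.35 in batches 1 and 2 and by -0.01 in batch 3. Atp6ap1, an accessory protein of V0 assembly, had 0.32 ± 0.12 (SE) with its widest difference in batch 3, and Atp6v1c1, a peripheral stalk subunit, had 0.09 ± 0.11 (SE).

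**Figure D3:**
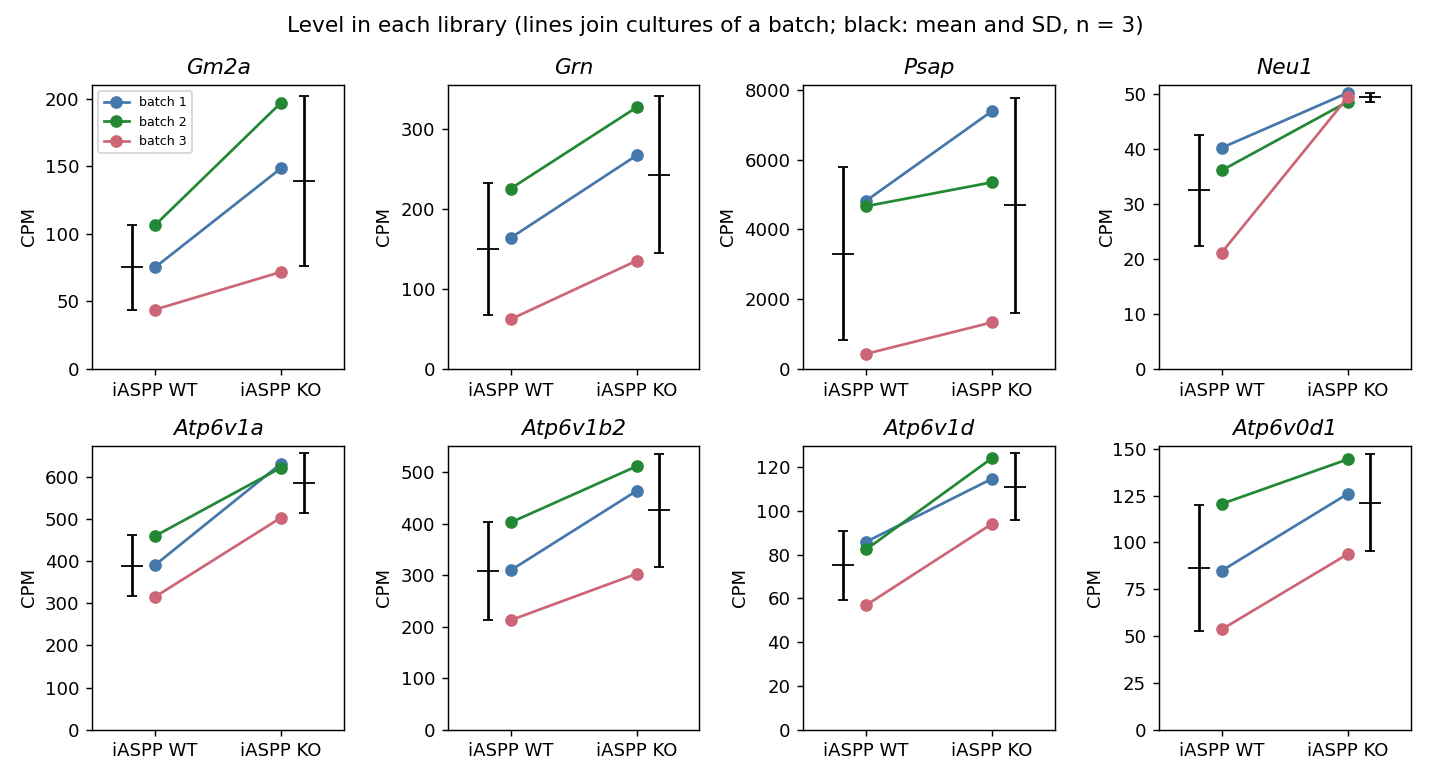
Level in each library, in CPM on linear axes from 0, of the 6 called genes and of Psap and Neu1. Lines join the iASPP WT and iASPP KO cultures of a batch, and black marks give the mean and SD of each group (n = 3). Every line rises, and batch 3 is lowest in all panels except in iASPP KO for Neu1.

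Gm2a had the largest log2 fold change of the 42 genes. It encodes the activator that presents GM2 ganglioside to hexosaminidase A (chr11:55098115-55113029, plus strand). The gene was at 149, 197 and 71.8 CPM in iASPP KO and at 75.2, 107 and 44.0 CPM in iASPP WT, or 139 ± 63.2 against 75.2 ± 31.3 CPM (mean ± SD, n = 3). Batch 2 was highest and batch 3 lowest in both groups, which overlapped, while within batches the log2 differences were 0.98, 0.89 and 0.71. The fitted value was 0.86 ± 0.12 (SE, adjusted p = 0.00398). It passed in every fit that kept batch in the model.

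Grn, whose secreted product progranulin is taken up into lysosomes and cut into granulins (chr11:102430315-102437048, plus strand), had the second lowest adjusted p. Its level was 267, 327 and 135 CPM in iASPP KO and 164, 226 and 62.1 CPM in iASPP WT. The order of batches was that of Gm2a, and the iASPP KO library of batch 3 lay below the iASPP WT libraries of batches 1 and 2. The log2 fold change was 0.79 ± 0.13 (SE, adjusted p = 0.0115), with 0.70, 0.54 and 1.12 within batches, and it too passed in every fit with batch in the model.

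Psap encodes prosaposin, the precursor of the saposins that activate sphingolipid hydrolases (chr10:60277627-60302597, plus strand). It was at 7392, 5349.9 and 1335 CPM in iASPP KO and at 4821, 4665 and 433 CPM in iASPP WT, so each batch 3 library lay far below the others. Within batches 1, 2 and 3 its log2 difference came to 0.62, 0.20 and 1.62. The fitted 0.81 ± 0.22 (SE) was the second largest of the 42, but the gene did not pass (edgeR adjusted p = 0.0724). DESeq2 gave it an adjusted p of 0.272, while leaving out batch 2 or batch 3, or testing every gene with at least 1 count, brought it past the threshold in edgeR. Psap alone took 0.676%, 0.506% and 0.142% of all counts in iASPP KO and 0.482%, 0.452% and 0.0481% in iASPP WT.

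The remaining lipid genes gave no call. Npc2, the soluble cholesterol carrier of the lysosome, was at 362 to 367 CPM in iASPP KO and 263 to 333 CPM in iASPP WT, without overlap, and its log2 fold change was 0.29 ± 0.11 (SE). Acid ceramidase (Asah1) and the depalmitoylating enzyme Ppt1 had 0.22 and 0.19. Acid lipase (Lipa) and acid sphingomyelinase (Smpd1) had -0.36 and -0.09. Smpd1 changed sign between batches, from 0.31 in batch 2 to -0.68 in batch 3.

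Among the glycosidases, which remove sugars one at a time from glycoproteins and glycolipids, none of 10 passed and the median log2 fold change was 0.17. Neu1, the lysosomal sialidase (chr17:34931253-34935953, plus strand), was the one with the largest difference. It was at 50.2, 48.6 and 49.4 CPM in iASPP KO and at 40.2, 36.1 and 21.2 CPM in iASPP WT. The iASPP KO libraries were nearly equal and lay above all iASPP WT libraries, of which batch 3 was the lowest. Its log2 fold change of 0.65 ± 0.18 (SE) had an edgeR adjusted p of 0.0851. Gla, the α-galactosidase deficient in Fabry disease, had a log2 fold change of 0.54 ± 0.23 (SE), nearly all of it in batch 3 (-0.02, 0.24 and 1.42 within batches). The other 8 lay between -0.05 (Man2b1, an α-mannosidase) and 0.25 (Manba, a β-mannosidase).

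The 5 sulfatases, which take sulfate groups off glycosaminoglycans and sulfolipids, had a median log2 fold change of 0.06 and no call. Galns, which desulfates keratan sulfate, had the most negative value of all 42 genes, -0.51 ± 0.38 (SE), and its iASPP KO libraries (2.74 to 3.27 CPM) lay below its iASPP WT libraries (4.17 to 4.32 CPM). Arsb was the least abundant member, at 0.356 to 1.74 CPM, where the 3-count floor of these libraries was 0.123 to 0.141 CPM, and its log2 fold change of 0.23 had an SE of 0.87. Tpp1, a peptidase that trims tripeptides from protein ends, had 0.44 ± 0.12 (SE, edgeR adjusted p = 0.0718) and was higher in iASPP KO in every batch. Lgmn, a cysteine protease that cuts after asparagine, had -0.37 ± 0.14 (SE, edgeR adjusted p = 0.195), and its iASPP KO libraries lay at 31.5 to 37.6 CPM against 40.2 to 46.2 CPM.

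None of the 7 membrane proteins passed, and their median log2 fold change was 0.25. Lamp1, the most abundant glycoprotein of this group per length (chr8:13159161-13175338, plus strand), was at 698, 725 and 569 CPM in iASPP KO and 595, 630.1 and 405 CPM in iASPP WT. Lamp2, its relative with a part in autophagy (chrX:38401357-38456454, minus strand), was at 407, 399 and 355 CPM in iASPP KO and 365, 359 and 257 CPM in iASPP WT. For both genes iASPP KO was higher within each batch, batch 3 was lowest in each group, and the groups overlapped. The log2 fold changes were 0.31 ± 0.11 and 0.26 ± 0.11 (SE), with edgeR adjusted p of 0.189 and 0.288.

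Npc1, the membrane protein that passes cholesterol out of the lysosome, was the uncalled gene closest to the threshold, with a log2 fold change of 0.45 ± 0.11 (SE, edgeR adjusted p = 0.0560) and like values in the 3 batches (0.40, 0.43 and 0.53). Scarb2, a membrane glycoprotein that takes part in enzyme transport to lysosomes, had 0.25 without overlap of the groups. Cln3 and the calcium channel Mcoln1 had 0.12 and 0.08. The tetraspanin Cd63 had -0.14, ranging from -0.64 in batch 2 to 0.23 in batch 3, and 12% of its windows of 42 bases, the read length, are shared with other genes.

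The transcription factors that bind the shared promoter element did not pass the test. Tfeb (chr17:47737030-47792419, plus strand) was at 4.01, 4.98 and 4.59 CPM in iASPP KO and at 8.86, 4.22 and 5.43 CPM in iASPP WT. One library, iASPP WT of batch 1, stood above the others, and the log2 fold change of -0.38 (95% interval -1.17 to 0.40) became 0.00 without batch 1. Tfe3 (chrX:7762560-7775202, plus strand) was at 29.0, 21.6 and 25.0 CPM in iASPP KO and 25.6, 24.5 and 24.9 CPM in iASPP WT. Its groups overlapped throughout, and the log2 fold change was 0.00 with an interval from -0.35 to 0.36. Both factors are known to be controlled by their entry into the nucleus, which RNA levels do not measure.

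Calls were found among genes with and without the promoter motif. Of the 12 members with TCACGTG, 2 were higher in iASPP KO (Atp6v0d1 and Atp6v1a) and the median log2 fold change was 0.09. Of the 24 with a promoter but no TCACGTG, 3 were higher (Gm2a, Grn and Atp6v1d) and the median was 0.24. Over all tested genes with a promoter, 19 of 732 with the motif and 192 of 9833 without it were higher in iASPP KO. The medians of these genes were 0.04 with the motif and 0.00 without it. The difference between the 12 and the 24 genes was not tested.

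Per kilobase of merged exon, the 42 genes covered most of the range of expression in these cells. The mean over the 6 libraries was 1457 CPM per kilobase for Psap, at percentile 99.8 of tested genes, and 226 for Lamp1. Atp6ap1, Atp6v1a, Atp6v1b2, Npc2, Atp6v0d1 and Grn followed between 100.1 and 56.7 CPM per kilobase. At the other end were Tfe3 at 2.71, Tfeb at 0.944, Idua, the iduronidase of glycosaminoglycan breakdown, at 0.752, and Arsb at 0.135 CPM per kilobase, at percentile 3.27. Psap ranged from 158 to 2694 CPM per kilobase over the libraries, a span that reached across the mean of Lamp1.

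More of these genes passed the test of batch than that of condition, and the same held over all tested genes. Between conditions 2.17% of all tested genes were higher in iASPP KO and 1.95% lower, and the batch test took both batch terms together. In the same fit, 13 of the 42 genes (31.0%) differed between batches at an adjusted p under 0.05, against 15.8% of all tested genes. In batch 3, 11 of them were lower than in batches 1 and 2 (9.06% of all tested genes) and 2, Hexa and Lipa, were higher (6.72%). The 11 were Psap and Gm2a of the lipid genes, Grn and Tpp1, the glycogen-degrading glucosidase Gaa, the membrane proteins Npc1, Cln3 and Mcoln1, and the V-ATPase subunits Atp6v0a1, Atp6v0d1 and Atp6v1b2. Without batch 3 only Gm2a differed between the remaining batches (edgeR adjusted p = 0.0141), of 41 members tested, where 4.51% of all tested genes did.

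Psap had the widest batch difference among these genes, a log2 value of -2.84 for batch 3 relative to the mean of batches 1 and 2. Grn had -1.38, Atp6v0a1 -1.34, Cln3 -1.16 and Gm2a -1.14. Hexa, the α-subunit of hexosaminidase A, went the other way at 1.01, and Lipa at 0.87. Summed over the 42 genes, the share of all counts was 1.17%, 1.03% and 0.595% in iASPP KO and 0.912%, 0.902% and 0.387% in iASPP WT. Without Psap it was 0.491%, 0.521% and 0.453% against 0.430%, 0.450% and 0.339%, higher in iASPP KO in each batch. The summed share of the 8 V-ATPase genes was 0.191%, 0.201% and 0.164% against 0.148%, 0.164% and 0.120%.

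**Figure D4:**
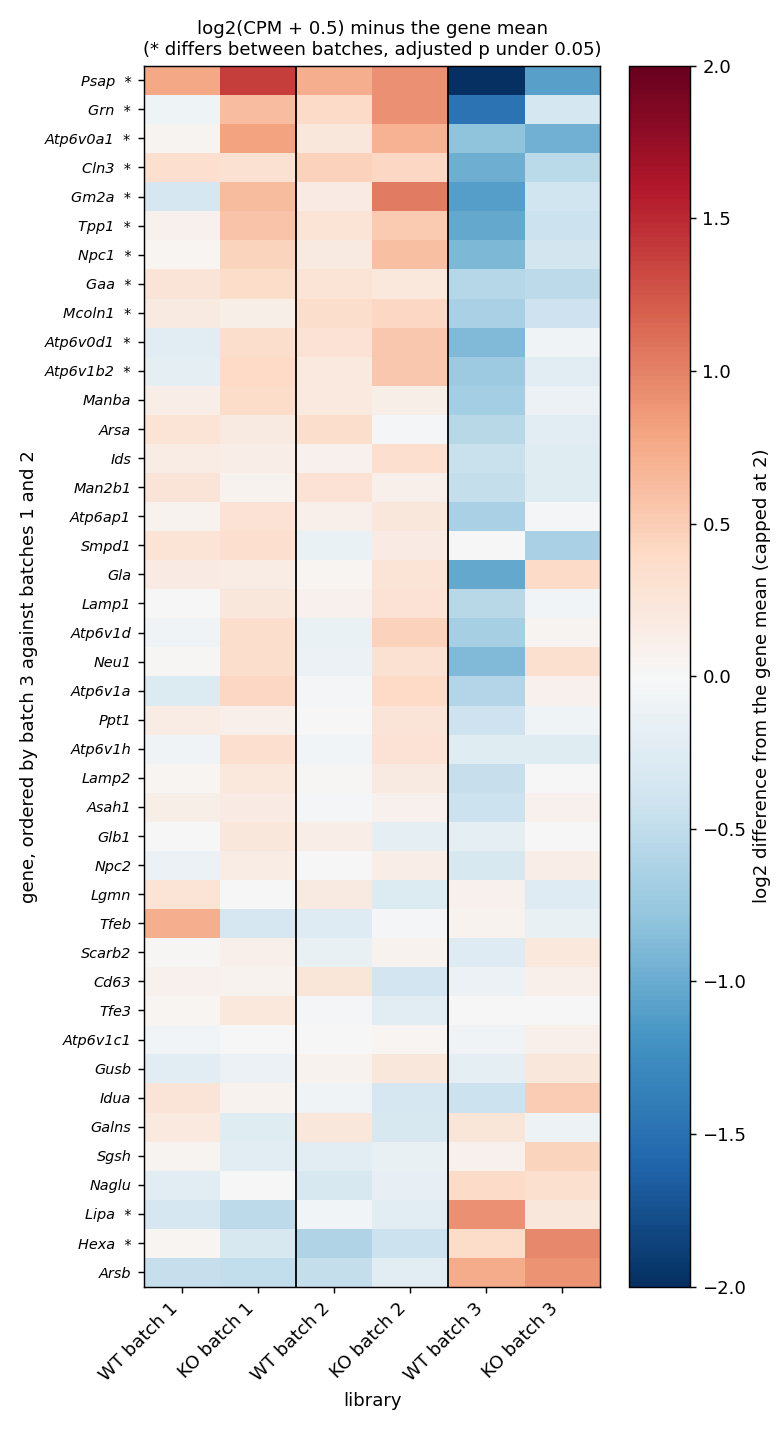
Colour map of the 42 genes over the 6 libraries, as log2(CPM + 0.5) minus the mean of each gene, from blue (lower) to red (higher) and capped at 2. Genes are ordered by batch 3 against batches 1 and 2 and stars mark the 13 that differed between batches. The batch 3 columns are blue for the 11 starred genes at the top, from Psap down. They are red near the bottom for Lipa and Hexa, and in the last row for Arsb, which has no star.

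Markers of other cell types also differed between libraries. The 12 macrophage markers summed to 28.2, 35.6 and 79.9 CPM in iASPP KO and 17.0, 18.7 and 59.5 CPM in iASPP WT. Of the 12, 6 could be tested and 1, Csf1r, was higher in iASPP KO (log2 fold change 1.11 ± 0.21, SE, edgeR adjusted p = 0.0206), where 2.17% of all tested genes were. The rest of the 6, Lyz2 among them, did not pass. C1qc was at 0 in every library and C1qb at no more than 3 counts. The macrophage markers did not move together between batches: Csf1r was at 18.5, 28.8 and 5.23 CPM in iASPP KO and 9.09, 15.1 and 1.92 CPM in iASPP WT, lowest in batch 3, whereas Lyz2 was at 59.1 and 49.6 CPM in batch 3 and at 1.11 to 4.81 CPM in the other 4 libraries. The 6 melanocyte markers summed to 854, 395 and 1036 CPM in iASPP KO and 1088, 341 and 1019 CPM in iASPP WT, lowest in batch 2, and none of them passed between conditions. The 6 Langerhans and T cell markers summed to 0.410 to 3.43 CPM and the 5 endothelial markers to 3.02 to 13.0 CPM. Of the 9 fibroblast markers, Col1a2 and Col3a1 were lower in iASPP KO, where 1.95% of all tested genes were. The sum of the 9 was 45.1, 58.0 and 509 CPM in iASPP KO and 43.1, 51.2 and 735 CPM in iASPP WT. That sum was lower in iASPP KO in batch 3 only. The part of these cells in the lysosome gene differences was not tested, and in such bulk RNA a change in the number of cells of a type cannot be told apart from a change in RNA per cell.

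A further 78 genes of the same system were read out beside the 42, of which 70 could be tested. Of these 70, 4 (5.71%) were higher in iASPP KO and none was lower, against 2.17% and 1.95% of all tested genes. A positive log2 fold change was found for 58 (82.9%, against 50.6% of all tested genes), and the median was 0.19. At an unadjusted p under 0.05, 21 were higher and 0 lower, where 8.66% and 8.09% of all tested genes were. Abcb9, a lysosomal peptide transporter, had the largest called value, 0.90 ± 0.20 (SE, edgeR adjusted p = 0.0353), from 16.3, 25.5 and 8.62 CPM in iASPP KO and 9.0, 13.6 and 4.5 CPM in iASPP WT. Within batches the log2 difference was 0.86, 0.90 and 0.93, although batch 3 of iASPP KO lay below the iASPP WT cultures of both other batches.

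Atp6v0b, a subunit of the V0 proteolipid ring, was at 496, 523 and 277 CPM in iASPP KO and 342, 379 and 143 CPM in iASPP WT (log2 fold change 0.65 ± 0.13, SE, edgeR adjusted p = 0.0204). Fnip2, a partner of folliculin in nutrient signalling at the lysosome, was at 164, 166 and 67.0 CPM against 121, 124 and 31.8 CPM (0.64 ± 0.15, SE, edgeR adjusted p = 0.0388). Both genes were higher in iASPP KO within each batch, and batch 3 was lowest in both groups. Without batch 2 none of the 4 calls held. Without batch 1, Atp6v0b and Fnip2 passed (edgeR adjusted p = 0.0384 and 0.0476), and Abcb9 was among those that did not (edgeR adjusted p = 0.121).

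Over all 25 V-ATPase genes in both lists, 21 could be tested. Among them 5 were higher in iASPP KO (23.8%, against 2.17% of all tested genes). Of the 5, 4 were the members above, while the 13 other tested subunits gave 1 (Atp6v0b) with a median log2 fold change of 0.27. A positive log2 fold change was found for 20 of the 21 (95.2%, against 50.6%), and the median was 0.31. Of the 11 testable cathepsins, lysosomal proteases not among the 42, 2 were higher in iASPP KO (18.2%, against the same 2.17%): Ctsl at 1.19 ± 0.11 and Ctsd at 0.65 ± 0.11 (log2 fold change ± SE), with edgeR adjusted p of 0.00109 and 0.0098.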

How the data were processed

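The 3 iASPP KO and 3 iASPP WT libraries were grouped and paired by the sample labels, which give each a batch. Ribosomal RNA was depleted and single reads of 42 bases were sequenced. The authors trimmed reads with Cutadapt 2.10, aligned them to mm10 with STAR 2.7.3 and deposited counts per gene name from featureCounts 2.0.0, made on exons, by strand, with GENCODE vM25 and without normalization. The deposited log2 fold changes and p-values of the authors' own DESeq2 comparison were not used.

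Counts were tested with edgeR 4.0.16 (R 4.3.3): filterByExpr by condition, TMM, glmQLFit and glmQLFTest with batch and condition, and Benjamini-Hochberg adjustment over 14916 genes. Standard errors were derived from F and the fold change, and within-batch values subtract log2 CPM computed with prior count 2. Batch was tested with both batch terms together. Cultures of a batch deviated together (correlations 0.302, 0.368 and 0.568), and they came from the same batch by label. Cultures of a group differed far beyond sampling noise, but no label says that they came from separate mice. With batch in the model, the residual spread of a gene is how its difference between iASPP KO and iASPP WT varied over the batches. The p-values and standard errors combine that spread (2 degrees of freedom) with one estimated from all tested genes (median 8.17), which weighs more for most genes. They therefore do not measure the spread of a single gene over the batches alone. The labels do not say whether the spread over batches is a spread between mice. Depth of 20202517 to 25157117 counts gives a 3-count floor of 0.123 to 0.141 CPM, which covers counting error only because the libraries carried no molecular identifiers. edgeR estimated a common dispersion of 0.0627 (degrees of freedom: 2 residual, 8.17 prior). Gene positions are those of the count table, and shared windows were counted in GENCODE vM21 transcripts.

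The members and gene lists were chosen with earlier results of these data known. Values per library are given for members past the threshold, the 5 with the largest absolute change, Lamp1, Lamp2, Tfeb and Tfe3, and for other lysosome genes past the threshold, of which 1 is not reported here. Genes named for batch differences, ranges or overlap were named after their values were seen. Alternatives were DESeq2 1.42.0, 2 other scalings, 2 other count filters, robust dispersion, no batch term and each batch left out. The fits were tested on simulated data. Promoters are RefSeq's (GRCm38.p6). Tables and figures used Python 3.11.15, pandas 2.3.3, numpy 2.4.6 and matplotlib 3.10.9.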

Additional observations from a re-analysis of the deposited data

How the results depend on the processing

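The 42 genes were tested under 10 alternatives to the reported fit, in which 6 were higher in iASPP KO and 0 lower. The count of higher genes was 9 with DESeq2, 7 with DESeq2's size factors, 6 with upper-quartile scaling, 11 with every gene of at least 1 count, 8 with at least 10 counts in every library and 8 with robust dispersion, and the 6 genes reported were among the calls each time. Npc1 joined them in 5 of these and Tpp1 in 4. Of all tested genes, 3.65%, 2.47%, 2.44%, 1.95%, 3.09% and 2.57% were higher in these fits, in the same order. The share in the reported fit was 2.17%. The count of lower members was 0 under every alternative. Without the replicate block, that is with batch left out of the paired fit, 0 members and 0 of the other lysosome genes were called, and Ppp1r13l at -1.38 also failed the threshold (adjusted p = 0.973). Leaving out a batch gave 3 to 11 higher members, 3 without batch 1 or batch 2 and 11 without batch 3. Gm2a and Grn were called in all 9 fits with the block, Atp6v1d in 8 and Atp6v1a, Atp6v1b2 and Atp6v0d1 in 7. The median log2 fold change of the 42 genes stayed at 0.22 to 0.23, or 0.12 to 0.30 with a batch left out. The median of all tested genes stayed within 0.02 of 0.

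The number of members that differed between batches was 13, where 15.8% of all tested genes did. It was 17 with DESeq2, 13 with either other scaling, 16 with at least 1 count, 14 with at least 10 counts in every library and 16 with robust dispersion. With a batch left out it was 1 to 16, 1 being the value without batch 3, where 4.51% of all tested genes differed. Of the other lysosome genes 4 were higher, against 9 with DESeq2, 7 with its size factors, 11 with at least 1 count, 7 with at least 10 counts, 7 with robust dispersion and 0 to 7 with a batch left out (2 without batch 1, 0 without batch 2 and 7 without batch 3). Of all tested genes, 1.09% (without batch 1) to 5.2% (without batch 3) were higher in these fits. The cause of the shifts in these counts was not tested.

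No fold change of a member turned its sign under the other scalings, filters and tools. With a batch left out 13 members did, none of them called. Their log2 fold changes ran from -0.32 to 0.11 for Cd63, -0.045 to 0.20 for Cln3, -0.0012 to 0.16 for Mcoln1, -0.10 to 0.40 for Hexa, -0.054 to 0.22 for Glb1, -0.0063 to 0.086 for Gaa, -0.19 to 0.029 for Man2b1, -0.26 to 0.45 for Idua, -0.25 to 0.12 for Arsa, -0.10 to 0.24 for Sgsh, -0.30 to 0.19 for Smpd1, -0.69 to 0.00037 for Tfeb and -0.084 to 0.10 for Tfe3. The limits are 3 cultures per group and 2 residual degrees of freedom, so that small changes of scarce genes such as Arsb (SE 0.87) were not detectable at this depth, and whether the change in iASPP KO differs between batches was not tested.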

Other observations

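The other lysosome genes are given here by group. For 26 further hydrolases and activators the median log2 fold change was 0.13. Of 19 tested membrane proteins 1 was higher in iASPP KO (Abcb9, median log2 fold change 0.20), of 13 tested V-ATPase subunits 1 (Atp6v0b, median 0.27) and of 12 tested relatives of Tfeb and Rag-Ragulator genes 1 (Fnip2, median 0.27), where 2.17% of all tested genes were higher. Between batches 20 of the 70 differed (28.6%), 18 of them lower in batch 3, where 9.06% of all tested genes were.

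TCACGTG stood in the promoters of 12 of 62 of these other genes (19.4%), and in those of 2 of 10 cathepsins (20%), against 6.93% of tested genes.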
